A study of Mus musculus with 27 samples.

Results

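The genes described here are 33 genes of cholesterol and fatty acid synthesis, measured in RNA of primary mouse lung fibroblasts. They were chosen by name, as the enzymes of both pathways and the SREBP regulators above them, and each symbol was matched to its Ensembl ID among the 48440 genes of the count table. All 33 passed the filter on low counts, which left 18684 genes for testing. The cells came from wild-type C57BL/6 mice, and all 27 libraries share that genotype and a culture at low oxygen in serum. KU60019, which blocks the DNA damage kinase ATM, was given at 3 uM for 15 d or for 35 d, with DMSO as its vehicle for the same times. In the removal groups the inhibitor or the vehicle was withdrawn after 15 or 35 d and the cells were harvested 20 d later. Irradiated cells were given 10 Gy of X-rays 10 d before harvest, serving as the study's positive control for senescent cells, and no sham-irradiated group is among the labels.

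Each of the 9 groups has 3 libraries, named for example S1_705, S2_715 and S3_716, and values below are given in that order of endings. What the endings mark is not stated, and p-values reflect the spread between libraries, which may be technical. Counts per library ran between 20659745 and 50859493, with a median of 31265114, and the 33 genes together took between 0.146% and 0.318% of them. Levels are CPM, counts scaled by the library size after TMM normalization, and can be compared between libraries of 1 gene; levels of different genes are compared as the deposited TPM, which allow for gene length. Fold changes are on the log2 scale with their standard error, and a gene rose or fell where edgeR's Benjamini-Hochberg adjusted p over all genes was under 0.05. In bulk RNA, fewer cells expressing a gene and less of its RNA per cell cannot be told apart.

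Cholesterol is built from acetyl-CoA through mevalonate and its isoprenoid products, which are joined into squalene and then closed and trimmed to the sterol. The transcription factors SREBF1 and SREBF2 sit in the endoplasmic reticulum with their escort SCAP. When sterols are plentiful the INSIG proteins hold them there, and when sterols run low the factors are cut free, enter the nucleus and switch on the genes of both pathways. SREBF1 is known mainly for the fatty acid genes and SREBF2 for the sterol genes. Fibroblasts make membrane lipid by these routes, and dividing cells need more of it.

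Promoters were taken from RefSeq on GRCm38.p6, from 250 bases before to 50 bases after each annotated start, and 26 of the 33 genes matched an entry. The letters TCACNCCAC, the core of the sterol regulatory element that SREBF proteins bind, were searched on both strands along with CCAAT, bound by NF-Y, and GGGCGG, bound by Sp1. In the promoters of these genes TCACNCCAC was found in 1 gene of the 26 (3.85%), beside 1.44% of 27025 genes with a promoter in the table. CCAAT was found in 80.8% of the matched genes, beside 41.1% of all, and GGGCGG in 84.6%, beside 38.2% of all. No letter run of one motif holds another, and a gene counts where any of its promoters has the motif. These shares describe letters in a short window and say nothing about binding. Hmgcs1 (ENSMUSG00000093930) is shown as the gene with the sterol element core, and Idi1 (ENSMUSG00000058258) and Acss2 (ENSMUSG00000027605) were added after their values were seen, as a gene called in most of the comparisons below and as a gene that rose after removal at 35 d where most of the 33 fell. Capitals mark CCAAT or its reverse complement ATTGG in all 3 and, in Hmgcs1, the core TCACCCCAC, which ends 129 bases before the start. The windows lie on the plus strand at chr13:119690101-119690400 for Hmgcs1, chr13:8885356-8885655 for Idi1 and chr2:155517793-155518092 for Acss2.
Hmgcs1: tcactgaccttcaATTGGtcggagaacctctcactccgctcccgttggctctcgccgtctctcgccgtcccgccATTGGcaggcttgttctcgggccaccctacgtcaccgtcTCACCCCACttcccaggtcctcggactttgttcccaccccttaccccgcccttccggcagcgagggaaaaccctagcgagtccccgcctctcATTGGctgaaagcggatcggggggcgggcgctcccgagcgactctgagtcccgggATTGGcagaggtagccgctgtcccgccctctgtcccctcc
Idi1: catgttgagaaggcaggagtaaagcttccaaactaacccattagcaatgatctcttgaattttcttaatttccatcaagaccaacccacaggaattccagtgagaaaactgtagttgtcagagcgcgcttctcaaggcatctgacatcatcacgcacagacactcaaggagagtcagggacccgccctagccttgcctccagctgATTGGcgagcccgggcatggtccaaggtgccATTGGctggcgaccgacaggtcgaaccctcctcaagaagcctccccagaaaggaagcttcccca
Acss2: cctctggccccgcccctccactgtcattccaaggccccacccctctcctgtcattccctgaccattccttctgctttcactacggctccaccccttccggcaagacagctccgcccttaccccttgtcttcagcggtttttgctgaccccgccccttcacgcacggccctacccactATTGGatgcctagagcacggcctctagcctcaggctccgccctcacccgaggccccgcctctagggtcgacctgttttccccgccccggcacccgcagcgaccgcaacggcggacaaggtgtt

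Levels per gene length differed widely among the 33. The highest mean TPM over the 27 libraries belonged to 3 desaturases, with 137 TPM for Scd2, 117 TPM for Fads1 and 62.5 TPM for Fads2. Insig1 followed with 48.1 TPM, Msmo1 with 46.3 TPM and the fourth desaturase, Scd1, with 41.1 TPM. The lowest means were 3.81 TPM for the elongase Elovl6, 4.49 TPM for the sterol carrier Stard4 and 5.35 TPM for lanosterol synthase, Lss. Across groups, the mean CPM of Fads2 moved most, with 6.54 times as much in DMSO 15 d as in KU60019 35 d removal libraries, and that of Scap least, with 1.47 times as much in the highest as in the lowest group. By group, 19 of the 33 genes had their highest mean in the DMSO 35 d removal group, 10 had their lowest in the KU60019 35 d removal group and 8 had their lowest after irradiation. The same counts over all genes are not given, so these have no background. Of all genes tested, 64.1% were called between DMSO 35 d removal and DMSO 35 d.

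**Figure D1:**
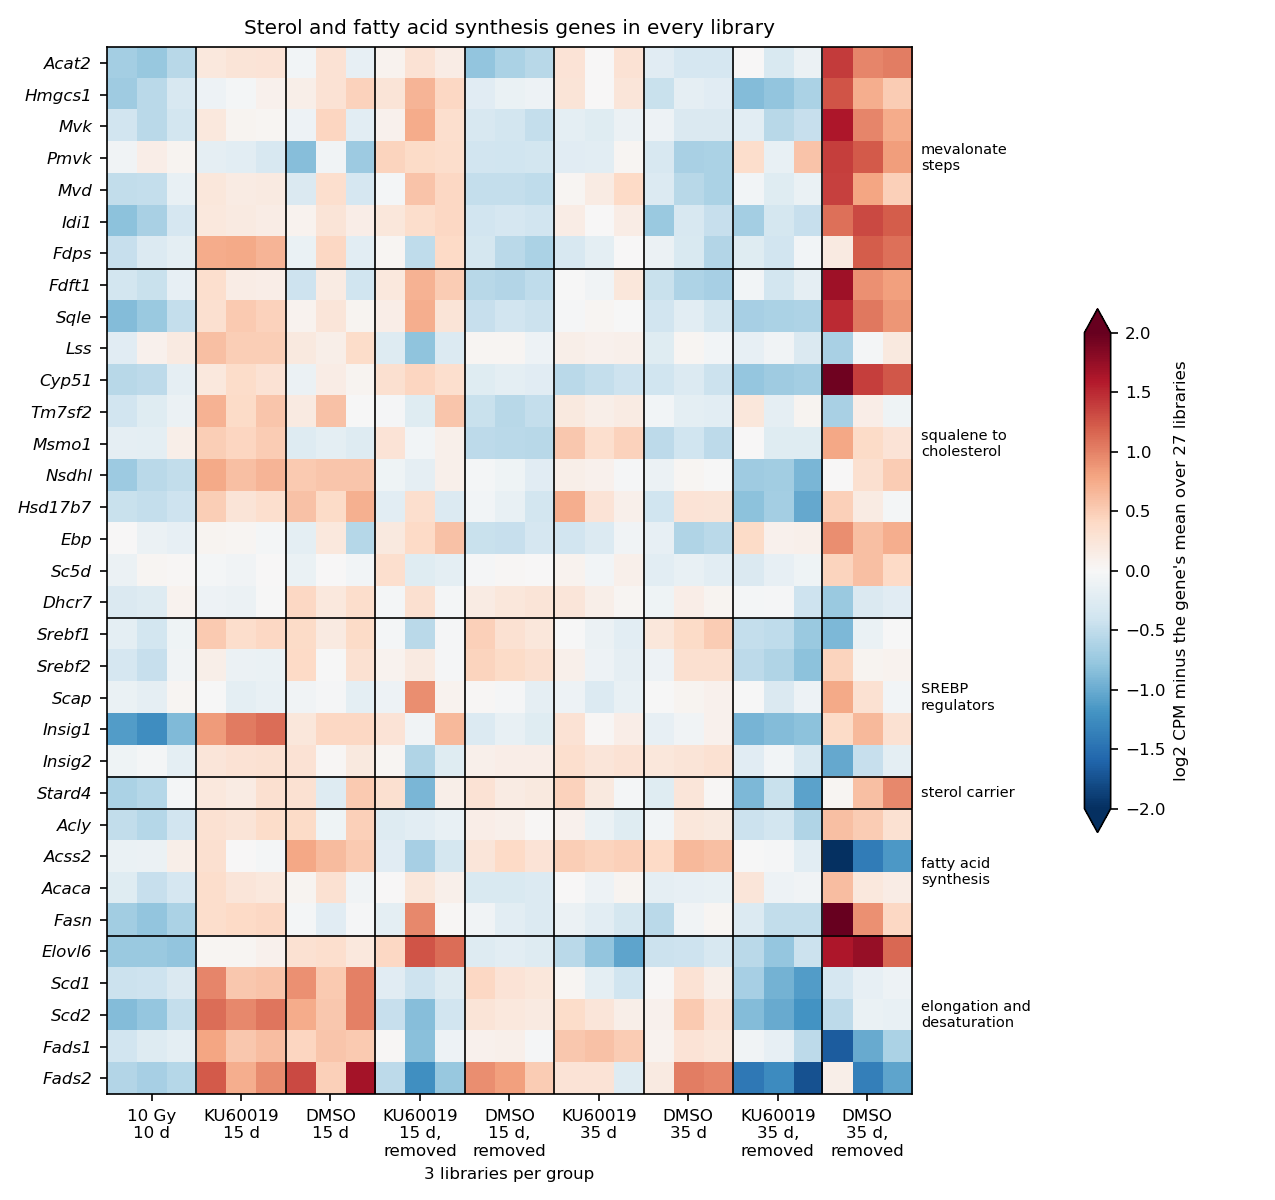
Each row is 1 of the 33 genes, ordered by role, and each column 1 of the 27 libraries, grouped by treatment; colour is log2 CPM minus the gene's mean over all libraries, ending at 2 on either side. The DMSO 35 d removal libraries are the reddest for 19 of the genes on average, and the KU60019 35 d removal and irradiated libraries hold the lowest means of 10 and 8 genes. The same counts over all genes are not given.

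The labelled cell type was checked first. All 10 fibroblast markers were tested, none was at 0 in a group, and their summed level lay between 12300 and 63400 CPM over the libraries. Epithelial markers summed to at most 4.19 CPM. Adipocyte markers summed to between 40.9 and 801 CPM, and Adipoq, which defines adipocytes, had a median of no more than 0.0468 CPM in any group. Schwann cell markers summed to between 13.9 and 130 CPM, macrophage markers to between 24.4 and 122 CPM, and endothelial markers to between 99.5 and 290 CPM. By group the fibroblast sums lay between 12500 and 15100 CPM with KU60019 for 15 d, between 19700 and 21100 CPM for 35 d and between 18800 and 24800 CPM after irradiation, against between 35000 and 52100 CPM with DMSO for 15 d and between 42900 and 52700 CPM for 35 d.

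Of the libraries, 4 held more than 0.4% ribosomal RNA (S7_705 and S19_705 and S20_715 of the DMSO removal groups, and S27_716 of the irradiated group, at 0.846%, 2.92%, 0.432% and 1.60%). Correlations of each library's levels, relative to gene means, with gene length (Spearman) differed between some groups. They lay between 0.257 and 0.329 in DMSO 15 d removal and between -0.227 and -0.0724 in KU60019 15 d removal libraries. They lay between 0.0959 and 0.353 in DMSO 35 d, -0.127 and 0.0602 in KU60019 35 d and -0.218 and -0.127 in DMSO 35 d removal libraries. Within the DMSO 15 d group they differed as well, at 0.344, -0.109 and 0.324, with S2_715 apart from the others. Their part in the results was not tested. The deposited TPM are the counts multiplied by 1 constant per library and divided by 1 per gene, so a test on them differs from the count test by library scaling and by the model. With TMM the median log2 change of all genes lay within 0.04 of 0 in every comparison, while on log2(TPM + 1) it reached -0.47 for KU60019 15 d removal, 0.32 for KU60019 35 d removal and -0.67 for DMSO 35 d removal against DMSO 35 d. Counts on that scale are therefore given beside each result. The shares of all genes given below are those of edgeR's adjusted p with TMM scaling. They are no background for counts on TPM, at an unadjusted p, with DESeq2 or with other controls.

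Cells under KU60019 for 15 d were set against DMSO at 15 d. Of the 33 genes 3 rose (13.2% of all genes tested rose) and 2 fell (17.1% of all fell), so 5 were called where 30.3% of all genes were. With log2(TPM + 1) instead 1 rose and 3 fell. The median change of the 33 genes was 0.14, beside -0.02 for all genes, and became -0.09 beside -0.18 with TPM. By role, 1 of 7 mevalonate genes, 1 of 11 genes from squalene to cholesterol and 1 of 5 SREBP regulators rose, 1 of 11 genes from squalene to cholesterol and 1 of 4 fatty acid synthesis genes fell, and of the 5 elongases and desaturases and Stard4 none was called.

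Msmo1, the oxidase that strips methyl groups from the sterol ring, had 116, 110.5 and 117 CPM in the KU60019 15 d libraries, against 68.8, 72.1 and 68.7 CPM in the DMSO 15 d libraries. The groups did not overlap, and the inhibitor libraries lay close together (log2 fold change 0.71 ± 0.12, adjusted p = 0.000145). Insig1, which retains SCAP when sterols are plentiful, had 129, 147 and 155 CPM in the KU60019 15 d libraries, against 84.2, 95.8 and 95.3 CPM in the DMSO 15 d libraries. Every inhibitor library was above every DMSO library (log2 fold change 0.65 ± 0.14, adjusted p = 0.00172). Fdps, which makes farnesyl diphosphate, had 17.9, 18.1 and 17.2 CPM in the KU60019 15 d libraries, against 9.80, 14.3 and 9.26 CPM in the DMSO 15 d libraries. S2_715 was the highest DMSO library and still lay below the inhibitor libraries (log2 fold change 0.67 ± 0.23, adjusted p = 0.0297).

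Acss2, which makes acetyl-CoA from acetate, had 19.1, 15.5 and 14.9 CPM in the KU60019 15 d libraries, against 26.4, 23.8 and 22.1 CPM in the DMSO 15 d libraries. All inhibitor libraries were lower (log2 fold change -0.55 ± 0.16, adjusted p = 0.0123). Dhcr7, the reductase of the last sterol step, had 11, 10.9 and 11.9 CPM in the KU60019 15 d libraries, against 15.9, 13.8 and 15.3 CPM in the DMSO 15 d libraries. These groups did not overlap either (log2 fold change -0.41 ± 0.14, adjusted p = 0.0334). Without S2_715 of the DMSO group 9 genes were called, and without S1_705, S5_715 or S6_716 2 were called, Msmo1 and Insig1, while without S3_716 or S4_705 Acss2 was called as well. Acss2 and Dhcr7 lost their calls when each library's trend with gene length was removed, an alternative chosen after seeing the data, which left 5 genes higher and 0 lower. Endothelial markers moved with this comparison: 8 of 12 fell, and they summed to between 138 and 194 CPM with KU60019 and between 151 and 259 CPM with DMSO, with none at 0 in either group. Of 6 adipocyte markers tested 2 fell and 0 rose. Their sums did not overlap, between 49.8 and 119 CPM with KU60019 and between 155 and 412 CPM with DMSO, with 0 and 1 markers at 0. Of 8 macrophage markers tested 5 fell and 1 rose, with sums between 43.2 and 65.0 CPM with KU60019 and between 50.2 and 109 CPM with DMSO, and of 10 fibroblast markers 5 fell and 1 rose. Mitochondrially encoded genes took between 2.58% and 2.86% of the counts with KU60019 and between 1.77% and 1.94% with DMSO. Their part in the result was not tested.

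At 35 d of treatment, 6 of the 33 genes rose (9.7% of all genes rose) and 0 fell (8.4% of all fell), against 18.1% of all genes called in either direction. All 6 belong to sterol synthesis, 4 of 7 mevalonate genes and 2 of 11 genes from squalene to cholesterol, and on log2(TPM + 1) 2 of the 33 rose, Msmo1 and Mvd, and 9 fell, among them Mvk, Srebf1 and Scd1. At an unadjusted p under 0.05 edgeR had 8 of the 33 higher and 4 lower, and DESeq2 called 6 higher and 1 lower, Srebf1. The median change of the 33 was 0.16, beside -0.01 for all genes, and -0.16 beside -0.33 with TPM. None of the SREBP regulators, fatty acid synthesis genes, elongases and desaturases or Stard4 was called.

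Msmo1 had 119, 103 and 112 CPM in the KU60019 35 d libraries, against 57.0, 62.4 and 56.9 CPM in the DMSO 35 d libraries. The gap between the groups was wide, the lowest inhibitor library standing far above the highest DMSO library (log2 fold change 0.92 ± 0.12, adjusted p = 1.78e-05). Idi1, the isomerase that makes dimethylallyl diphosphate, had 19.2, 17.3 and 19.2 CPM in the KU60019 35 d libraries, against 10.2, 13.8 and 12.5 CPM in the DMSO 35 d libraries. No inhibitor library reached down to the DMSO libraries (log2 fold change 0.61 ± 0.13, adjusted p = 0.00169). Acat2, the thiolase that opens the route by joining acetyl-CoA units, had 44.1, 36.7 and 44.7 CPM in the KU60019 35 d libraries, against 31.5, 29.2 and 29.2 CPM in the DMSO 35 d libraries. S17_715 was the lowest of the inhibitor libraries and lay above all DMSO libraries (log2 fold change 0.48 ± 0.13, adjusted p = 0.0118).

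Mvd, the decarboxylase of the mevalonate route, had 24.9, 27.2 and 32.1 CPM in the KU60019 35 d libraries, against 20.1, 16.5 and 15.6 CPM in the DMSO 35 d libraries. All inhibitor libraries were higher (log2 fold change 0.69 ± 0.20, adjusted p = 0.0192). Fdft1, squalene synthase, had 67.2, 64.5 and 79.3 CPM in the KU60019 35 d libraries, against 49.7, 44.3 and 42.8 CPM in the DMSO 35 d libraries. The groups were again apart (log2 fold change 0.63 ± 0.19, adjusted p = 0.0239). Hmgcs1, which condenses acetoacetyl-CoA to HMG-CoA, had 75.1, 63.1 and 74.7 CPM in the KU60019 35 d libraries, against 46.4, 55.7 and 53.9 CPM in the DMSO 35 d libraries. It was higher in every inhibitor library, with a p just under the threshold (log2 fold change 0.45 ± 0.16, adjusted p = 0.0493). Without S14_715, S15_716 or S18_716 only Msmo1 and Idi1 were called, 2 in all, and Hmgcs1 was not called once any 1 of the 6 libraries was left out. Srebf1, the factor named for fatty acid genes, had 66.4, 61.8 and 57.5 CPM in the KU60019 35 d libraries, against 78.1, 87.0 and 95 CPM in the DMSO 35 d libraries. All inhibitor libraries lay below the DMSO libraries, with a p just over the threshold (log2 fold change -0.49 ± 0.17, adjusted p = 0.0503). Of 9 Schwann cell markers tested, 7 rose here, with sums between 28.7 and 130 CPM under KU60019 and between 13.9 and 14.9 CPM under DMSO, and none at 0 in either group, and of 10 fibroblast markers 6 fell and 2 rose. Mitochondrially encoded genes took between 5.08% and 6.61% of the counts under KU60019 for 35 d and between 1.61% and 1.73% under DMSO, without overlap. Their part in the result was not tested.

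Whether the inhibitor's effect changed with time was tested as the difference between the 35 d and the 15 d effect. Of the 33 genes 2 had a higher effect at 35 d (7.11% of all genes) and 0 a lower one (4.58% of all), 11.7% of all genes being called. At an unadjusted p under 0.05 edgeR had 3 higher and 2 lower, and DESeq2 called 3 higher and 0 lower. For Hmgcs1 the effect was 0.45 at 35 d and -0.31 at 15 d, a difference of 0.76 ± 0.22, adjusted p = 0.0265. At 15 d Hmgcs1 had 58.9, 61.0 and 66.6 CPM in the KU60019 15 d libraries, against 68.4, 77.1 and 86.3 CPM in the DMSO 15 d libraries. Its inhibitor libraries were thus below the DMSO libraries at 15 d and above them at 35 d, though at 15 d the change did not pass the test (adjusted p = 0.133). For Idi1 the effect was 0.61 at 35 d and 0.02 at 15 d, a difference of 0.58 ± 0.18, adjusted p = 0.0336. Neither difference was called on log2(TPM + 1). Without S5_715, S13_705, S16_705 or S18_716 neither was called, without S3_716 or S4_705 1 was called (Idi1), and without S2_715, S6_716 or S15_716 1 was called (Hmgcs1). Endothelial markers differed in the same test, 6 of 12 with a higher effect at 35 d, as did 4 of 9 Schwann cell and 3 of 8 macrophage markers, and their part in the result was not tested.

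After removal at 15 d, the cells that had seen KU60019 were set against cells that had seen DMSO. Of the 33 genes 15 rose (24.7% of all genes rose) and 6 fell (24% of all fell), and 48.7% of all genes were called. Of 7 mevalonate genes 6 rose, of 11 genes from squalene to cholesterol 6 rose and Lss fell, and of 5 elongases and desaturases 3 fell and Elovl6 rose; roles were not tested against each other, and on log2(TPM + 1) the sterol rises were mostly lost, with 3 of the 33 higher and 13 lower. With RLE scaling the mevalonate count was 7 of 7 and with library size alone 6 of 7. The median change of the 33 was 0.43, beside -0.01 for all genes, and -0.14 beside -0.47 with TPM. Without S11_715 of the inhibitor group it was 0.13, beside -0.02 for all genes. With each library's trend with gene length removed it was 0.61, beside 0.05 for all genes. The share of counts from mitochondrially encoded genes lay between 1.23% and 1.57% after KU60019 and between 1.62% and 2.02% after DMSO, and its part in the result was not tested. Of the SREBP regulators 1 rose and 1 fell, of the 4 fatty acid synthesis genes 1 rose and 1 fell, and Stard4 was not called.

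Elovl6, which lengthens palmitate, had 16.8, 30.1 and 27.4 CPM in the KU60019 15 d removal libraries, against 10.5, 10.9 and 10.6 CPM in the DMSO 15 d removal libraries. The DMSO libraries were nearly equal and all inhibitor libraries were well above them (log2 fold change 1.22 ± 0.17, adjusted p = 6.49e-05). Acat2 had 38.4, 45.0 and 40.5 CPM in the KU60019 15 d removal libraries, against 21.3, 23.6 and 24.8 CPM in the DMSO 15 d removal libraries. There was no overlap (log2 fold change 0.83 ± 0.13, adjusted p = 0.000134). Sqle, squalene epoxidase, had 50.8, 76.3 and 55.4 CPM in the KU60019 15 d removal libraries, against 33.5, 35.4 and 34.4 CPM in the DMSO 15 d removal libraries. S11_715 was the highest of the inhibitor libraries, and the other two were also above DMSO (log2 fold change 0.82 ± 0.15, adjusted p = 0.000281).

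Idi1 had 20.2, 22 and 23 CPM in the KU60019 15 d removal libraries, against 13.2, 13.7 and 13.2 CPM in the DMSO 15 d removal libraries. The groups were tight and apart (log2 fold change 0.70 ± 0.13, adjusted p = 0.000307). Fdft1 had 78.5, 109.8 and 96.4 CPM in the KU60019 15 d removal libraries, against 46.3, 45.0 and 47.5 CPM in the DMSO 15 d removal libraries. Here too S11_715 was highest, and the groups did not overlap (log2 fold change 1.04 ± 0.19, adjusted p = 0.000339). Msmo1 had 98.9, 79.3 and 88.0 CPM in the KU60019 15 d removal libraries, against 57.1, 56.3 and 55.9 CPM in the DMSO 15 d removal libraries. All inhibitor libraries were higher (log2 fold change 0.65 ± 0.12, adjusted p = 0.000382). The other rises were Hmgcs1 (0.62 ± 0.16), the mevalonate kinases Mvk (0.80 ± 0.19) and Pmvk (0.78 ± 0.18), Mvd (0.83 ± 0.20), Cyp51 (0.58 ± 0.13), Tm7sf2 (0.64 ± 0.20), Ebp (0.82 ± 0.16), Insig1 (0.53 ± 0.14) and Acaca (0.41 ± 0.13), all as log2 fold changes.

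On the falling side, Fads2, the desaturase of the first step towards long polyunsaturated fatty acids, had 29.5, 18.1 and 25 CPM in the KU60019 15 d removal libraries, against 81.1, 74.8 and 60.2 CPM in the DMSO 15 d removal libraries. Every inhibitor library was below the lowest DMSO library (log2 fold change -1.57 ± 0.32, adjusted p = 0.000697). Scd2 (-0.76 ± 0.16) and Scd1 (-0.60 ± 0.15), which desaturate stearate, Acss2 (-0.71 ± 0.16), Srebf1 (-0.52 ± 0.17) and Lss (-0.42 ± 0.17) fell as well. S11_715 stood apart within the inhibitor group: Scap was at 65.2, 133 and 73.4 CPM and Fasn, fatty acid synthase, at 92.1, 205 and 107 CPM, and neither was called. Without that library Lss, Srebf1 and Acaca lost their calls and Fdps gained 1, without S12_716 Tm7sf2 and Insig1 lost theirs, and without S7_705, S8_715 or S9_716 Lss lost its call, as Srebf1 did without S7_705. Of 9 Schwann cell markers tested 6 rose, with sums between 18.8 and 80.2 CPM after KU60019 and between 17.4 and 18.5 CPM after DMSO and none at 0 in either group, and 7 of 10 fibroblast markers fell, with sums between 23700 and 31300 CPM after KU60019 and between 55600 and 63400 CPM after DMSO. Their part in the result was not tested.

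**Figure D2:**
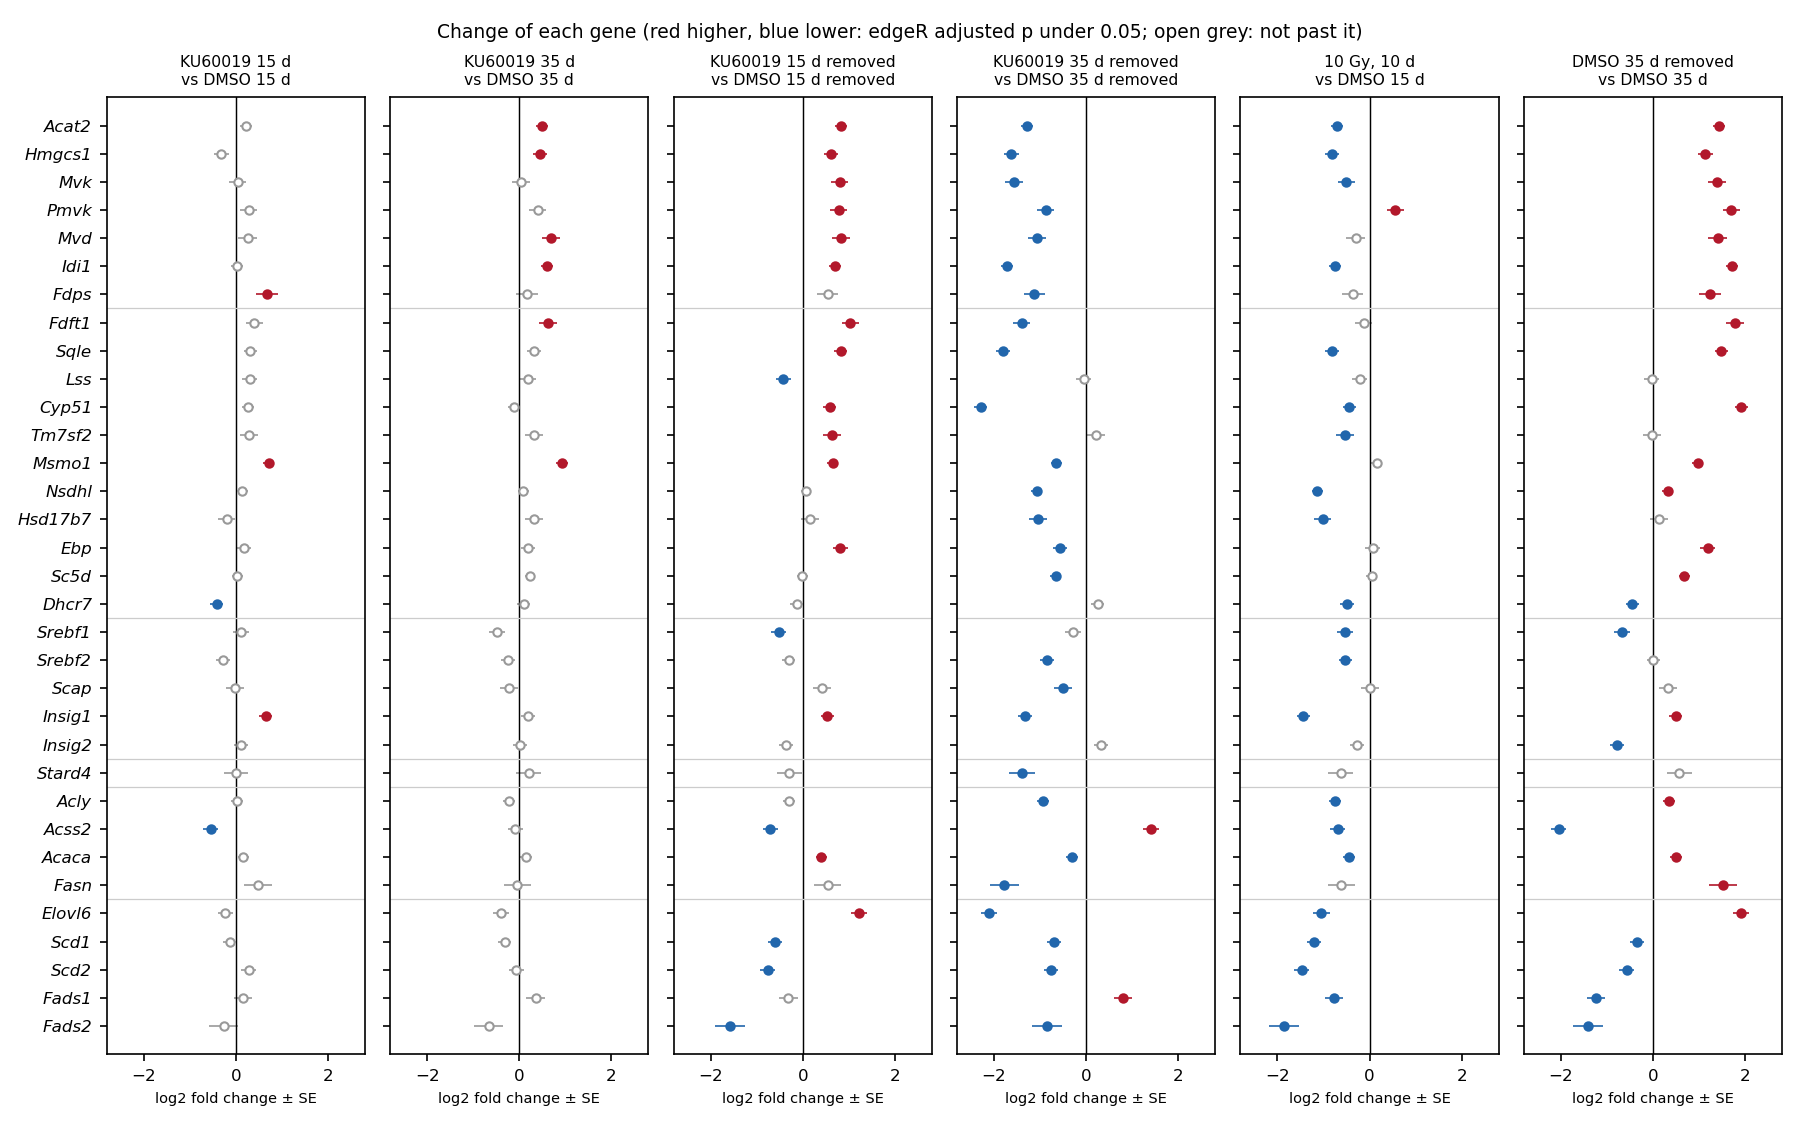
Log2 fold change with its standard error for each of the 33 genes, ordered by role, in the treated against DMSO comparisons and in DMSO 35 d removal against DMSO 35 d; filled red points rose and filled blue points fell (edgeR adjusted p under 0.05), open points did not pass. In counts with TMM scaling, 15 filled points lie right (24.7% of all genes rose) and 6 left (24% of all fell) after removal at 15 d. After removal at 35 d 2 lie right (24.4% of all rose) and 26 left (24.5% of all fell). On log2(TPM + 1) the 15 and the 26 became 3 and 13, for which no share of all genes is given.

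Tested as a difference, the inhibitor's effect after removal at 15 d was higher than the effect before removal for 6 of the 33 genes (14% of all genes) and lower for 3 (11.4% of all), with 25.4% of all genes called; on log2(TPM + 1) 1 was higher and 2 lower. Elovl6 had an effect of 1.22 after removal and -0.23 before, a difference of 1.44 ± 0.24, adjusted p = 0.000246. Before removal Elovl6 had 13, 13 and 13.3 CPM in the KU60019 15 d libraries, against 15.5, 15.9 and 14.6 CPM in the DMSO 15 d libraries. So its inhibitor libraries lay below DMSO before removal and above DMSO after it. Scd2 had an effect of -0.76 after removal and 0.28 before, a difference of -1.04 ± 0.22, adjusted p = 0.00227. Before removal it had 835, 750.5 and 806 CPM in the KU60019 15 d libraries, against 642, 557 and 774 CPM in the DMSO 15 d libraries, and those groups overlapped.

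Scd2 after removal had 279.8, 213 and 297 CPM in the KU60019 15 d removal libraries, against 459, 447 and 435 CPM in the DMSO 15 d removal libraries. There all inhibitor libraries were lower. Hmgcs1 (0.93 ± 0.22), Idi1 (0.68 ± 0.18), Acat2 (0.62 ± 0.18), Mvk (0.77 ± 0.27) and Ebp (0.64 ± 0.23) had higher effects after removal, and Lss (-0.72 ± 0.23) and Fads2 (-1.31 ± 0.45) lower ones, all as log2 differences. Calls fell to 4 without S2_715 or S7_705 and to 5 without S6_716, S8_715 or S11_715, and 13 were called without S10_705. Elovl6, Scd2, Hmgcs1 and Idi1 kept their calls under each of the 12 omissions. Mki67, a marker of dividing cells chosen after its values were seen, had a higher effect after removal as well (1.01 ± 0.33, adjusted p = 0.0294). Its median was 26.5 CPM in KU60019 15 d removal and 17 CPM in DMSO 15 d removal libraries. Top2a (0.46 ± 0.32, adjusted p = 0.296) and Ccnb1 (0.19 ± 0.36, adjusted p = 0.717), also markers of dividing cells, were not called in this edgeR test. Of 12 endothelial markers 8 had a higher effect after removal. The part of these markers in the result was not tested.

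After removal at 35 d, cells that had seen KU60019 were again set against cells that had seen DMSO. Of the 33 genes 2 rose (24.4% of all genes rose) and 26 fell (24.5% of all fell) in cells that had seen KU60019, with 48.9% of all genes called; on log2(TPM + 1) 5 rose and 13 fell. That made 28 called, beside 22 after irradiation, where 30.9% of all genes were called. On log2(TPM + 1) these counts were 18 and 24, and no share of all genes is given for them. All 7 mevalonate genes fell, as 7 did with library size alone and with RLE and 6 on TPM. Their fall is set against DMSO 35 d removal libraries, where all 7 were higher than in DMSO 35 d. Minus DMSO 35 d instead, their log2 differences of group means, without a test, did not share a direction. They were 0.79 for Pmvk, 0.34 for Mvd, 0.16 for Acat2, 0.12 for Fdps, 0.01 for Idi1, -0.18 for Mvk and -0.48 for Hmgcs1. Of 11 genes from squalene to cholesterol 8 fell, 3 of 5 SREBP regulators, Stard4, 3 of 4 fatty acid synthesis genes and 4 of 5 elongases and desaturases. The median change of the 33 was -0.88, beside -0.004 for all genes, -0.55 beside 0.29 with library size alone, and -0.41 beside 0.32 with TPM. Acss2 and Fads1 rose, and Lss, Tm7sf2, Dhcr7, Srebf1 and Insig2 were not called.

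Cyp51, the demethylase of lanosterol, had 37.2, 38.9 and 39.5 CPM in the KU60019 35 d removal libraries, against 245, 166 and 151 CPM in the DMSO 35 d removal libraries. The inhibitor libraries were nearly equal, and the lowest DMSO library was far above them (log2 fold change -2.28 ± 0.14, adjusted p = 2.11e-11). Idi1 had 10.7, 13.5 and 12.6 CPM in the KU60019 35 d removal libraries, against 37.2, 43.4 and 40.1 CPM in the DMSO 35 d removal libraries. The groups were tight and far apart (log2 fold change -1.72 ± 0.13, adjusted p = 4.54e-10). Sqle had 29.1, 29.6 and 30.2 CPM in the KU60019 35 d removal libraries, against 130.3, 95.7 and 85.4 CPM in the DMSO 35 d removal libraries. Among the DMSO libraries S19_705 was highest, and all 3 were well above the inhibitor libraries (log2 fold change -1.81 ± 0.15, adjusted p = 2.08e-09).

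Elovl6 had 8.68, 7.29 and 9.32 CPM in the KU60019 35 d removal libraries, against 38.7, 42.2 and 28.1 CPM in the DMSO 35 d removal libraries. No overlap was seen (log2 fold change -2.10 ± 0.18, adjusted p = 3.28e-09). Hmgcs1 had 34.5, 36.5 and 40.6 CPM in the KU60019 35 d removal libraries, against 149.9, 105 and 89.2 CPM in the DMSO 35 d removal libraries. S19_705 was again the highest library (log2 fold change -1.62 ± 0.16, adjusted p = 3.11e-08). Acat2 had 36.9, 29.8 and 33.9 CPM in the KU60019 35 d removal libraries, against 97.0, 72.3 and 74.3 CPM in the DMSO 35 d removal libraries. S19_705 was highest here too, and the groups were far apart (log2 fold change -1.27 ± 0.13, adjusted p = 5.85e-08). Insig1 had 37.6, 39.1 and 40.3 CPM in the KU60019 35 d removal libraries, against 93.1, 112 and 88.1 CPM in the DMSO 35 d removal libraries, and the groups were apart (log2 fold change -1.33 ± 0.15, adjusted p = 1.67e-07). Of the falls not yet named, Fasn (-1.77 ± 0.31), Mvk (-1.56 ± 0.19), Fdft1 (-1.40 ± 0.19), Stard4 (-1.39 ± 0.28) and Fdps (-1.12 ± 0.23) were the next in size, and Srebf2, the factor named for sterol genes, fell too (-0.85 ± 0.15).

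Fasn in the DMSO 35 d removal group had 468, 198 and 140.4 CPM, with S19_705 far above the others, against 72.0, 99.7 and 108 CPM in the DMSO 35 d group. Acss2 went the other way, with 15.2, 15.1 and 13.2 CPM in the KU60019 35 d removal libraries, against 3.63, 5.74 and 6.82 CPM in the DMSO 35 d removal libraries. All inhibitor libraries were higher (log2 fold change 1.41 ± 0.17, adjusted p = 5.47e-07). Fads1, another desaturase of the polyunsaturated route, had 208, 195 and 152 CPM in the KU60019 35 d removal libraries, against 68.6, 109 and 141 CPM in the DMSO 35 d removal libraries. These groups did not overlap, and S19_705 was lowest (log2 fold change 0.80 ± 0.20, adjusted p = 0.00239). Without S19_705 Scap, Acaca and Fads2 lost their calls and Srebf1 gained 1, and of the other 5 libraries each cost at most these 3 their calls. Without all 4 libraries above 0.4% rRNA, which leaves S21_716 as the lone DMSO library of this comparison, assumed to vary like the other groups, 22 were called, and Pmvk, Mvd, Ebp and Fads1 lost their calls as well.

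Markers of dividing cells moved with this result. Mki67 had a median of 3.32 CPM in the KU60019 35 d removal group and 357 CPM in the DMSO 35 d removal group, and Top2a 7.68 CPM and 249 CPM in the same groups. In the DMSO 35 d group Mki67 stood at a median of 13.9 CPM. Of 9 Schwann cell markers tested 7 rose, with sums between 24.6 and 52.2 CPM after KU60019 and between 19.1 and 31.8 CPM after DMSO, with 0 and 2 markers at 0. Of 6 adipocyte markers tested 5 rose, with sums of at least 245 CPM after KU60019 and at most 89.8 CPM after DMSO, with 0 and 1 markers at 0, Adipoq staying at or near 0 in both. Fibroblast markers summed to between 12300 and 15400 CPM after KU60019 and between 14000 and 18300 CPM after DMSO, 4 of 10 rising and 4 falling. The shares of mitochondrially encoded genes overlapped, between 2.96% and 3.31% after KU60019 and between 1.85% and 3.77% after DMSO. The part of these genes in the result was not tested.

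The DMSO groups were compared with each other to see how the control itself moved. In DMSO 35 d removal cells against DMSO 35 d cells 19 of the 33 genes were higher (31.5% of all genes were) and 8 lower (32.6% of all), with 64.1% of all genes called. On log2(TPM + 1) 10 were higher and 16 lower, and the median change of the 33 was -0.29 beside -0.67 for all genes, where it was 0.51 beside -0.04 with TMM and 0.24 beside -0.29 with library size alone. All 7 mevalonate genes were higher, as with RLE and with library size alone, and 5 of 7 were on TPM. Of the genes from squalene to cholesterol 7 of 11 were higher and 1 lower with TMM, and 4 higher and 5 lower on TPM. Of the SREBP regulators 1 was higher and 2 lower, of the fatty acid synthesis genes 3 and 1, and of the elongases and desaturases 1 and 4, with Stard4 not called. This comparison shares its DMSO 35 d removal libraries with the inhibitor comparison after removal at 35 d. With each library's trend with gene length removed the median change of the 33 here was 0.735, beside 0.02 for all genes.

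Cyp51 had 245, 166 and 151 CPM in the DMSO 35 d removal libraries, against 48.5, 52.7 and 47.4 CPM in the DMSO 35 d libraries. The difference was large beside the spread in both groups (log2 fold change 1.92 ± 0.14, adjusted p = 3.39e-10). Idi1 had 37.2, 43.4 and 40.1 CPM in the DMSO 35 d removal libraries, against 10.2, 13.8 and 12.5 CPM in the DMSO 35 d libraries, with no overlap (log2 fold change 1.72 ± 0.13, adjusted p = 5.31e-10). Acat2 had 97.0, 72.3 and 74.3 CPM in the DMSO 35 d removal libraries, against 31.5, 29.2 and 29.2 CPM in the DMSO 35 d libraries, again with no overlap (log2 fold change 1.44 ± 0.13, adjusted p = 1.14e-08). Elovl6 was higher too, with 38.7, 42.2 and 28.1 CPM in the DMSO 35 d removal libraries, against 9.32, 9.46 and 10.1 CPM in the DMSO 35 d libraries (log2 fold change 1.92 ± 0.18). So was Sqle, with 130.3, 95.7 and 85.4 CPM in the DMSO 35 d removal libraries, against 35.4, 39.9 and 35.9 CPM in the DMSO 35 d libraries (log2 fold change 1.49 ± 0.15). Acss2 was lower, with 3.63, 5.74 and 6.82 CPM in the DMSO 35 d removal libraries, against 20.2, 24.2 and 23.3 CPM in the DMSO 35 d libraries (log2 fold change -2.05 ± 0.17, adjusted p = 2.93e-09). Insig2 (-0.78 ± 0.15), Fads2 (-1.41 ± 0.32) and Fads1 (-1.23 ± 0.20) were lower as well, and under the rRNA criterion above Srebf1, Insig1, Acly, Acaca, Fasn, Scd1, Scd2 and Dhcr7 lost their calls, with the same lone library. Leaving out single libraries cost Nsdhl, Dhcr7, Acly and Scd1 their calls: Nsdhl without S13_705, S20_715 or S21_716, Dhcr7 without S14_715 or S19_705, Acly without S13_705, S19_705 or S20_715, and Scd1 without S14_715, S15_716, S19_705 or S20_715. Mitochondrially encoded genes took between 1.85% and 3.77% of the counts in the DMSO 35 d removal libraries and between 1.61% and 1.73% in the DMSO 35 d libraries. Mki67 had a median of 357 CPM in the DMSO 35 d removal libraries and 13.9 CPM in the DMSO 35 d libraries, and of 10 fibroblast markers 8 were lower and 2 higher. Of 6 adipocyte markers tested 3 were lower and 0 higher. They summed to between 40.9 and 89.8 CPM in DMSO 35 d removal and between 335 and 573 CPM in DMSO 35 d libraries, with 1 marker at 0 in each group. Their part in the result was not tested.

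**Figure D3:**
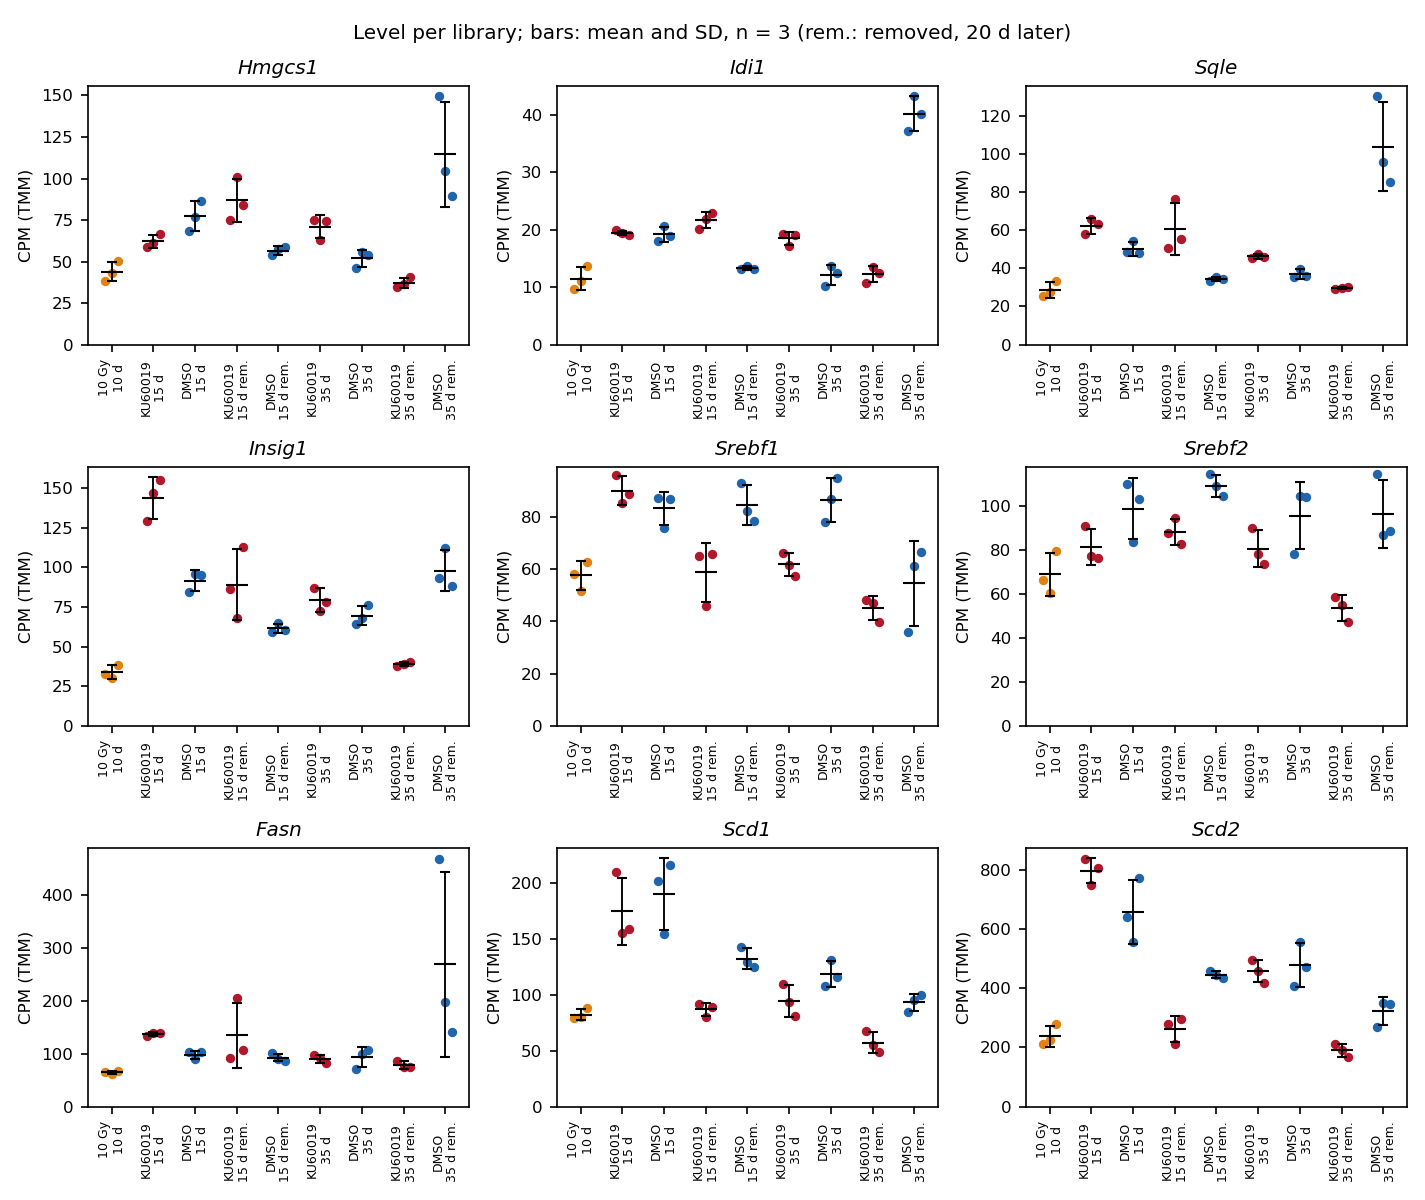
Level in CPM of 9 genes in each library, by group, with the mean and SD of 3 libraries. Idi1 lies between 37.2 and 43.4 CPM in the DMSO 35 d removal group and at most at 23 CPM in any other library.

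As a difference of effects, removal at 35 d gave a higher inhibitor effect for 1 of the 33 genes (15.8% of all genes) and a lower one for 22 (16.6% of all), with 32.4% of all genes called. This test uses the same DMSO 35 d removal libraries as the 2 comparisons before it. On log2(TPM + 1) 6 effects were higher and 11 lower. The lower effects took in all 7 mevalonate genes, 8 of 11 genes from squalene to cholesterol, 2 of 5 SREBP regulators, Stard4, 2 of 4 fatty acid synthesis genes and 2 of 5 elongases and desaturases with TMM, and on TPM 6, 4, 0, 0, 0 and 1 of them. Idi1 had an effect of -1.72 after removal and 0.61 before, a difference of -2.32 ± 0.18, adjusted p = 3.2e-09. Cyp51 had effects of -2.28 after and -0.11 before removal, a difference of -2.17 ± 0.19, adjusted p = 2.83e-08. Sqle had effects of -1.81 after and 0.32 before removal, a difference of -2.13 ± 0.21, adjusted p = 1.11e-07.

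The effects of Idi1 and Sqle thus lay above 0 before removal and below 0 after it. Acat2 (-1.76 ± 0.18), Hmgcs1 (-2.07 ± 0.22) and Msmo1 (-1.57 ± 0.17) completed the 6 with the lowest p. Msmo1 had 82.3, 69.8 and 69.5 CPM in the KU60019 35 d removal libraries, against 139.8, 107 and 99.7 CPM in the DMSO 35 d removal libraries, and those groups did not overlap. Acss2 was the single gene with a higher effect after removal (1.5 ± 0.23). Without the 4 libraries above 0.4% rRNA Pmvk, Ebp, Srebf2, Acly and Fasn lost their calls, and Srebf2 and Scd2 lost theirs without S13_705, S16_705 or S24_716. Srebf2 also lost its call without S19_705, and Scd2 without S20_715. Of 10 fibroblast markers 8 had a higher and 1 a lower effect after removal, and their part in the result was not tested.

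**Figure D4:**
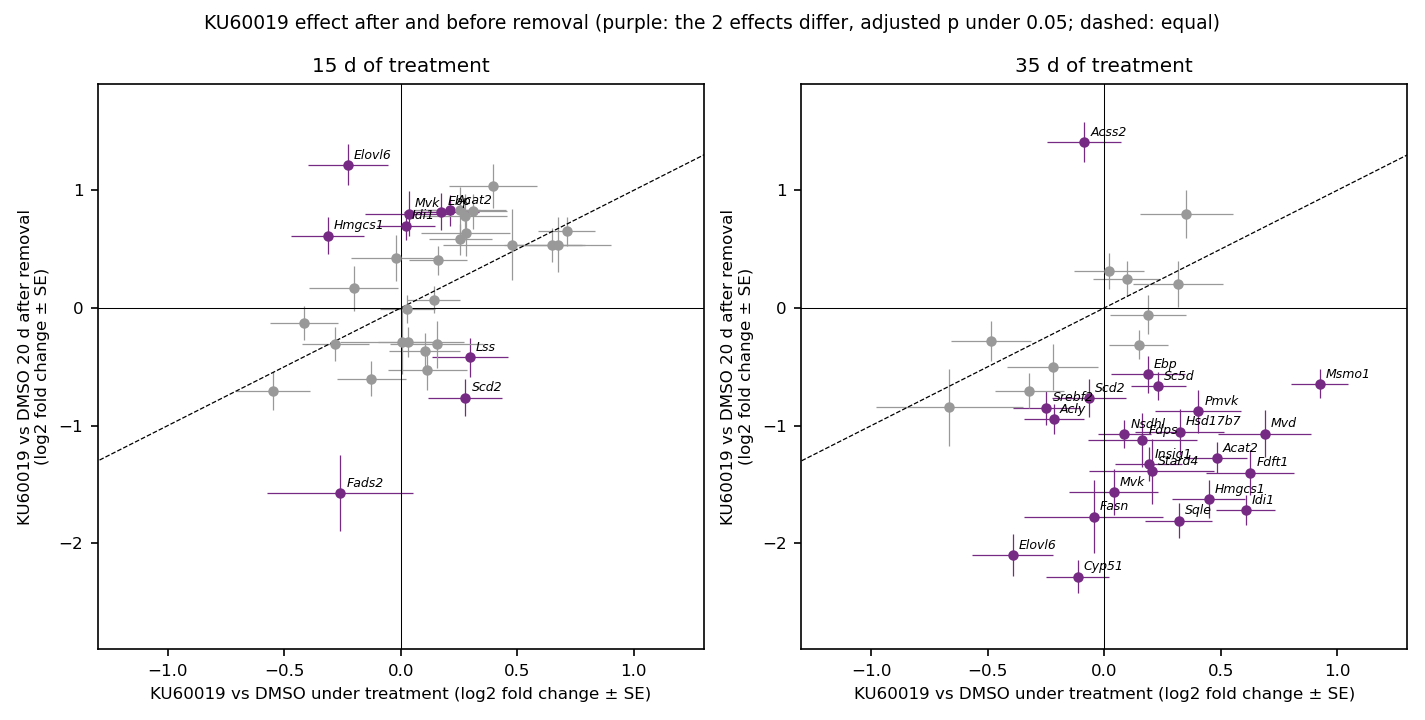
Log2 effect of KU60019 against DMSO before removal (x axis) and after removal (y axis) for the 33 genes, at 15 d and at 35 d; purple points are genes whose effects differed (edgeR adjusted p under 0.05), and the dashed line marks equal effects. With TMM scaling 6 purple points lie above the line at 15 d (14% of all genes) and 3 below (11.4% of all). At 35 d 1 lies above (15.8% of all) and 22 below (16.6% of all). On log2(TPM + 1) the counts were 1 and 2, and 6 and 11, for which no share of all genes is given.

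Irradiated cells were set against DMSO at 15 d, the vehicle group harvested earliest. Of the 33 genes 1 rose (14.1% of all genes rose) and 21 fell (16.8% of all fell), with 30.9% of all genes called, and the falls held across scalings, at 20 with RLE, 21 with library size alone and 23 on log2(TPM + 1). The median change of the 33 was -0.53, beside -0.01 for all genes. All 5 elongases and desaturases fell under each of these scalings. Of the mevalonate genes 4 of 7 fell and 1 rose, of the genes from squalene to cholesterol 6 of 11 fell, of the SREBP regulators 3 of 5 and of the fatty acid synthesis genes 3 of 4, and Stard4 was not called.

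Insig1 had 32.9, 30.4 and 38.6 CPM in the irradiated libraries, against 84.2, 95.8 and 95.3 CPM in the DMSO 15 d libraries. Irradiated libraries were all far below the DMSO libraries (log2 fold change -1.44 ± 0.15, adjusted p = 3.3e-07). Nsdhl, a sterol dehydrogenase, had 12.2, 13.8 and 14.2 CPM in the irradiated libraries, against 29.1, 29.5 and 29.7 CPM in the DMSO 15 d libraries. The DMSO libraries were almost equal and the irradiated ones all lower (log2 fold change -1.14 ± 0.12, adjusted p = 3.38e-07). Scd2 had 211, 225 and 278 CPM in the irradiated libraries, against 642, 557 and 774 CPM in the DMSO 15 d libraries. There was a wide gap between the groups (log2 fold change -1.47 ± 0.16, adjusted p = 8.95e-07).

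Scd1 had 79.0, 79.7 and 87.6 CPM in the irradiated libraries, against 201, 154 and 215 CPM in the DMSO 15 d libraries. S2_715 was the lowest DMSO library and lay above all irradiated ones (log2 fold change -1.21 ± 0.15, adjusted p = 3.68e-06). Elovl6 had 7.51, 7.48 and 7.28 CPM in the irradiated libraries, against 15.5, 15.9 and 14.6 CPM in the DMSO 15 d libraries. Both groups were tight (log2 fold change -1.04 ± 0.18, adjusted p = 0.000116). Idi1 had 9.77, 11 and 13.7 CPM in the irradiated libraries, against 18.1, 20.6 and 18.9 CPM in the DMSO 15 d libraries, with no overlap (log2 fold change -0.75 ± 0.13, adjusted p = 0.000128). Fads2 fell by the largest amount of the 33 in this comparison (-1.85 ± 0.32), and Pmvk was the single gene that rose, with 27.5, 31.5 and 29.9 CPM in the irradiated libraries, against 15.9, 27.4 and 17.3 CPM in the DMSO 15 d libraries. S2_715 almost reached the irradiated libraries there (log2 fold change 0.55 ± 0.18, adjusted p = 0.025), and the call was lost without S1_705, S3_716, S26_715 or S27_716.

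The choice of control changed the count: 13 genes were called against DMSO at 35 d and 10 against DMSO 15 d removal. The median change of the 33 was -0.37 and -0.27 there, beside 0.01 and 0.005 for all genes. No share of all genes called against either control is given beside these counts. Hmgcs1, Mvk, Idi1, Sqle, Cyp51, Tm7sf2, Dhcr7, Acaca and Fads1 were not called against either of these, and Elovl6 not against DMSO at 35 d. Insig1, Nsdhl, Scd1, Scd2 and Fads2 were called lower against all 3 controls. Without S26_715 14 genes were called, and without S25_705 17, the calls of Mvk, Cyp51, Tm7sf2, Dhcr7 and Srebf1 being lost in both. Mki67 had a median of 0.935 CPM after irradiation and 28.2 CPM in DMSO 15 d libraries, and 8 of 12 endothelial markers fell, with sums between 166 and 193 CPM after irradiation and between 151 and 259 CPM with DMSO, none being at 0 in either group, and of 10 fibroblast markers 5 fell and 1 rose. The share of mitochondrially encoded genes was between 2.37% and 2.61% after irradiation and between 1.77% and 1.94% with DMSO. Their part in the result was not tested.

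DMSO cells at 35 d were also set against DMSO cells at 15 d. At 35 d against 15 d 0 of the 33 were higher (0.455% of all genes were) and 3 lower (1.11% of all), with 1.56% of all genes called, and on log2(TPM + 1) 0 were called in either direction. At an unadjusted p under 0.05 edgeR had 14 of the 33 lower and 0 higher, and DESeq2 called 5 lower and 0 higher. The median change of the 33 was -0.32, beside -0.01 for all genes, and 30 of the 33 estimates were below 0. No share of all genes is given for the counts at an unadjusted p, with DESeq2 or of estimates below 0, so these counts have no background. Idi1 had 10.2, 13.8 and 12.5 CPM in the DMSO 35 d libraries, against 18.1, 20.6 and 18.9 CPM in the DMSO 15 d libraries, with no overlap (log2 fold change -0.66 ± 0.13, adjusted p = 0.00544). Nsdhl had 18.6, 20.8 and 20.0 CPM in the DMSO 35 d libraries, against 29.1, 29.5 and 29.7 CPM in the DMSO 15 d libraries, again apart (log2 fold change -0.57 ± 0.12, adjusted p = 0.00836). Scd1 had 108, 131 and 116 CPM in the DMSO 35 d libraries, against 201, 154 and 215 CPM in the DMSO 15 d libraries, and S14_715 was the nearest to the earlier group (log2 fold change -0.69 ± 0.15, adjusted p = 0.0154). Without S13_705 no gene was called, without S15_716 Idi1 alone, and without S1_705 or S3_716 Scd1 was not. Of 12 endothelial markers 9 were lower, with sums between 149 and 156 CPM at 35 d and between 151 and 259 CPM at 15 d and none at 0 in either group; their part in the result was not tested.

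Levels of 9 genes were followed through all groups, as mean ± SD of 3 libraries, without a test. Hmgcs1 averaged 44.0 ± 5.84 CPM in irradiated cells, 62.2 ± 3.96 with KU60019 for 15 d, 71.0 ± 6.80 for 35 d, 86.8 ± 13.2 after its removal at 15 d and 37.2 ± 3.11 after removal at 35 d. In the DMSO groups Hmgcs1 averaged 77.3 ± 8.96 CPM at 15 d, 52.0 ± 4.97 at 35 d, 56.6 ± 2.56 after removal at 15 d and 115 ± 31.5 after removal at 35 d. Put in order of their means, each group overlapped the next, except that the KU60019 15 d libraries, from 58.9 CPM, lay just above the DMSO 15 d removal libraries, up to 58.7 CPM. Idi1 averaged 11.5 ± 1.99 CPM in irradiated cells, 19.5 ± 0.37 with KU60019 for 15 d, 18.6 ± 1.13 for 35 d, 21.7 ± 1.42 after its removal at 15 d and 12.2 ± 1.39 after removal at 35 d. For Idi1 the DMSO groups averaged 19.2 ± 1.26 CPM at 15 d, 12.2 ± 1.78 at 35 d, 13.3 ± 0.307 after removal at 15 d and 40.2 ± 3.09 after removal at 35 d. Idi1 lay on 3 levels: the DMSO 35 d removal libraries on top, then the KU60019 15 d, DMSO 15 d, KU60019 15 d removal and KU60019 35 d libraries between 17.3 and 23 CPM, then the rest between 9.77 and 13.8 CPM.

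Sqle averaged 28.7 ± 4.05 CPM in irradiated cells, 62.4 ± 4.21 with KU60019 for 15 d, 46.2 ± 1.09 for 35 d, 60.8 ± 13.6 after its removal at 15 d and 29.6 ± 0.56 after removal at 35 d. With DMSO Sqle averaged 50.3 ± 3.70 CPM at 15 d, 37.1 ± 2.45 at 35 d, 34.4 ± 0.935 after removal at 15 d and 104 ± 23.5 after removal at 35 d. The DMSO 35 d removal libraries were above all others, and the KU60019 35 d removal and irradiated libraries overlapped at the bottom. Fasn averaged 64.6 ± 3.58 CPM in irradiated cells, 137 ± 2.93 with KU60019 for 15 d, 90.3 ± 7.37 for 35 d, 135 ± 61.1 after its removal at 15 d and 78.6 ± 7.11 after removal at 35 d. In the DMSO groups Fasn averaged 98.5 ± 7.55 CPM at 15 d, 93.1 ± 18.7 at 35 d, 92.6 ± 7.20 after removal at 15 d and 269 ± 175 after removal at 35 d. Irradiated libraries were the lowest, at no more than 67.9 CPM, and S19_705 alone stood at 468 CPM in the DMSO 35 d removal group.

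Insig1 averaged 33.9 ± 4.22 CPM in irradiated cells, 144 ± 13.3 with KU60019 for 15 d, 79.3 ± 7.41 for 35 d, 89.1 ± 22.5 after its removal at 15 d and 39.0 ± 1.36 after removal at 35 d. For Insig1 the DMSO groups averaged 91.8 ± 6.52 CPM at 15 d, 69.5 ± 6.07 at 35 d, 61.6 ± 2.87 after removal at 15 d and 97.9 ± 12.9 after removal at 35 d. KU60019 15 d was the highest group and did not overlap any other. Srebf1 averaged 57.7 ± 5.68 CPM in irradiated cells, 90.2 ± 5.46 with KU60019 for 15 d, 61.9 ± 4.45 for 35 d, 58.9 ± 11.4 after its removal at 15 d and 45.0 ± 4.61 after removal at 35 d. With DMSO Srebf1 averaged 83.4 ± 6.38 CPM at 15 d, 86.7 ± 8.46 at 35 d, 84.7 ± 7.54 after removal at 15 d and 54.6 ± 16.3 after removal at 35 d. No library of the KU60019 15 d, DMSO 15 d, DMSO 35 d or DMSO 15 d removal groups was below 76.0 CPM, and none of the other 5 groups was above 66.6 CPM. Srebf2 averaged 68.9 ± 9.67 CPM in irradiated cells, 81.4 ± 8.10 with KU60019 for 15 d, 80.6 ± 8.35 for 35 d, 88.3 ± 5.95 after its removal at 15 d and 53.6 ± 5.77 after removal at 35 d. In the DMSO groups Srebf2 averaged 98.9 ± 13.8 CPM at 15 d, 95.7 ± 15.1 at 35 d, 109 ± 4.99 after removal at 15 d and 96.5 ± 15.5 after removal at 35 d. The KU60019 35 d removal libraries lay below all others.

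Scd1 averaged 82.1 ± 4.78 CPM in irradiated cells, 174 ± 30.1 with KU60019 for 15 d, 94.6 ± 14.3 for 35 d, 87.0 ± 5.93 after its removal at 15 d and 57.2 ± 9.17 after removal at 35 d. For Scd1 the DMSO groups averaged 190.1 ± 32.0 CPM at 15 d, 118 ± 11.6 at 35 d, 132 ± 9.04 after removal at 15 d and 93.1 ± 7.68 after removal at 35 d. The lowest group was again KU60019 35 d removal, without overlap. Scd2 averaged 238 ± 35.7 CPM in irradiated cells, 797 ± 43.1 with KU60019 for 15 d, 457 ± 37.5 for 35 d, 263 ± 44.1 after its removal at 15 d and 190.0 ± 21.6 after removal at 35 d. With DMSO Scd2 averaged 658 ± 109 CPM at 15 d, 478 ± 74.1 at 35 d, 447 ± 12 after removal at 15 d and 323 ± 46.8 after removal at 35 d. KU60019 15 d and DMSO 15 d overlapped at the top, and KU60019 35 d removal and irradiated libraries met at 211 CPM at the bottom. Scd1 and Scd2 are close copies in sequence, as are Acat2 and its neighbour Acat3, and it is not stated how reads shared by such copies were counted.

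Genes around these pathways were read from 6 further lists, 82 of whose 83 genes were matched. Of 20 genes of sterol handling and liver X receptor targets, KU60019 raised 4 and lowered 1 at 15 d and raised 2 and lowered 1 at 35 d. After removal 2 rose and 7 fell at 15 d, and 10 rose and 4 fell at 35 d, among them the sterol exporter Abcg1 (-2.96 at 15 d), the lysosomal carrier Npc1 (-1.35 at 15 d), the sterol hydroxylase Cyp27a1 (2.16 at 35 d) and Soat1, which esterifies cholesterol (-1.18 at 35 d). After irradiation 1 rose and 8 fell, with the lowest p for the exporter Abca1 (-1.76). Among 9 other partners of sterol synthesis 2 rose and 0 fell at 15 d, 0 rose and 1 fell at 35 d, and after irradiation 1 rose and 3 fell. After removal 2 rose and 2 fell at 15 d, whereas 0 rose and 7 fell at 35 d, with the sterol scaffold protein gene Erg28 at 0.76 and -1.03.

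In the isoprenoid branch, of 10 genes 1 rose and 0 fell at 15 d, 1 and 1 at 35 d, 1 and 1 after removal at 15 d, 3 and 4 after removal at 35 d, and 3 and 2 after irradiation. Pdss1, a subunit of the synthase that makes the ubiquinone tail, was at -1.71 after removal at 35 d, and Nus1, of dolichol synthesis, at 0.59 at 15 d. Of 10 genes that process SREBP 0 rose and 1 fell at 15 d, 0 and 1 at 35 d, 1 and 4 after removal at 15 d, 0 and 2 after removal at 35 d, and 1 and 4 after irradiation, where the protease gene Mbtps1 was at -0.92. For 20 genes of fatty acid supply, activation and elongation the counts were 3 and 5, 3 and 2, 4 and 4, 6 and 5, and 3 and 2 in the same order. Thrsp, a gene known from lipogenic tissue, was at 3.68 with KU60019 at 35 d, and Hsd17b12, of the elongation cycle, at 0.95 at 15 d. Of 13 glycerolipid genes 3 rose and 1 fell, 1 and 0, 1 and 5, 5 and 1, and 4 and 1, with the acyltransferase Gpam at -2.60 at 15 d and -3.12 after removal at 15 d. All of these are log2 fold changes with TMM scaling, other scalings were not run for these lists, and the shares of all genes given above are their background. In DMSO 35 d removal against DMSO 35 d, 4 isoprenoid genes were higher and 1 lower, and 1 and 6 of those that process SREBP. For fatty acid supply, activation and elongation the counts there were 7 and 7, and for glycerolipid genes 3 and 5.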

How the data were processed

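RNA of 27 libraries, 3 in each of 9 groups, was sequenced after TruSeq preparation, per the labels' protocols. The authors deposited TPM and counts per gene; the submitters' processing notes name mm10 and featureCounts. How strand and shared reads were handled is not stated. Per the values, the deposited TPM equal the counts times 1 constant per library over 1 per gene, within 3.02e-07% over 10800 genes.

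The test ran on the counts in edgeR 4.0.16 under R 4.3.3: filterByExpr at a minimum count of 10, TMM factors, 1 group-means model of all libraries, robust quasi-likelihood F-tests and Benjamini-Hochberg adjustment over 18684 genes. The code was tested on simulated data. The 33 genes and all lists were chosen with earlier results of these data known. In each comparison the up to 6 called genes with the lowest p were given by library, and all called genes by count. Alternatives were RLE factors, library size alone, no filter, DESeq2 1.42.0, a model of the compared groups alone, a block for the library number, limma 3.58.1 on log2(TPM + 1) and log2(TPM + 0.1) for genes with at least 1 TPM in 3 libraries, other controls for irradiation and each library left out. Chosen after seeing the data were removal of the gene length trend, omission of the 4 libraries above 0.4% ribosomal RNA, and only the compared groups with the block. The numbers 705, 715 and 716 met the pairing rule (every correlation over 0.1) in 1 comparison, KU60019 15 d against DMSO 15 d, with correlations of 0.445, 0.332 and 0.470 between same-numbered libraries. No libraries of a group differed by as little as counting noise, the lowest chi-square per gene being 6.89. Symbols came from the reference gene table.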

Additional observations from a re-analysis of the deposited data

Results flagged for a closer look

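The inhibitor's effect differed between times or after removal for the genes below, by an edgeR test of the difference itself with the adjusted p under 0.05; all values are differences of log2 fold changes, later or after removal minus earlier. At 35 d against 15 d of treatment the difference was 0.76 for Hmgcs1 and 0.58 for Idi1. After removal at 15 d against before it was 1.44 for Elovl6, 0.93 for Hmgcs1, 0.77 for Mvk, 0.68 for Idi1, 0.64 for Ebp and 0.62 for Acat2, and -1.04 for Scd2, -0.72 for Lss and -1.31 for Fads2.

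After removal at 35 d against before, Acss2 was the single gene with a higher effect, at 1.5. Of the mevalonate genes Idi1 was at -2.32, Hmgcs1 at -2.07, Mvd at -1.76, Acat2 at -1.76, Mvk at -1.61, Fdps at -1.29 and Pmvk at -1.28. From squalene to cholesterol the differences were -2.17 for Cyp51, -2.13 for Sqle, -2.03 for Fdft1, -1.57 for Msmo1, -1.38 for Hsd17b7, -1.16 for Nsdhl, -0.89 for Sc5d and -0.75 for Ebp. Insig1 was at -1.52, Srebf2 at -0.60 and Stard4 at -1.59. Fasn was at -1.73, Elovl6 at -1.71, Acly at -0.73 and Scd2 at -0.70.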

How the results depend on the processing

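Counts of called genes among the 33 moved by more than 1.5 times as follows. For KU60019 15 d 3 were called with library size alone and with log2(TPM + 0.1), and between 2 and 9 with a library left out, against 5. For KU60019 35 d 12 were called with only the compared groups, 11 with either TPM pseudocount, and between 2 and 6 with a library left out, against 6. For KU60019 35 d removal 18 were called with either pseudocount and 17 with only the compared groups and the replicate block, against 28. For irradiation 13 were called with DMSO 35 d and 10 with DMSO 15 d removal as control, and between 14 and 20 with a library left out, against 22. For the difference between 35 and 15 d 1 was called with library size alone, 0 without the filter and with either pseudocount, 4 with only the compared groups, with or without the block, and between 0 and 2 with a library left out, against 2. For the difference after removal at 15 d 4 were called without the filter, 3 with either pseudocount, and between 4 and 13 with a library left out, against 9. For DMSO 35 d against 15 d 7 were called with library size alone, 5 with DESeq2 and without the 4 libraries of high rRNA, 0 with only the compared groups, with or without the block, 0 with either pseudocount, and between 0 and 3 with a library left out, against 3. The replicate block gave 5 calls for KU60019 15 d, the comparison where the numbers pair the libraries, and changed none of them. The causes were not tested.

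Directions turned on the TPM scale, where the effect is given with log2(TPM + 1) and then with log2(TPM + 0.1). For KU60019 35 d Mvk was at -0.30 and -0.31. For KU60019 15 d removal Insig1 was at -0.062 and -0.064, and Acaca at -0.14 and -0.16. For KU60019 35 d removal Scap was at 0.0082 and 0.0085, and Acaca at 0.14 and 0.17, and at 0.017 with library size alone. For the difference after removal at 35 d Ebp was at 0.070 and 0.073, Srebf2 at 0.23 and 0.23, Scap at 0.57 and 0.59, Acly at 0.11 and 0.11, and Scd2 at 0.13 and 0.13. For DMSO 35 d removal against DMSO 35 d Nsdhl was at -0.50 and -0.53, Hsd17b7 at -0.60 and -0.67, Sc5d at -0.16 and -0.17, Srebf2 at -0.80 and -0.83, Scap at -0.53 and -0.55, Insig1 at -0.34 and -0.35, Acly at -0.48 and -0.49, and Acaca at -0.29 and -0.34. Tm7sf2 was at 0.25 after irradiation with DMSO 15 d removal as control.

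Over all genes, only the compared groups with the block gave 5592 calls against 9096 for KU60019 15 d removal, 3733 against 9130 for KU60019 35 d removal, 3575 against 5765 for irradiation and 7798 against 11978 for DMSO 35 d removal against DMSO 35 d. Without the 4 libraries of high rRNA the last was 7381, KU60019 35 d removal gave 5596 and the difference after removal at 35 d 2966 against 6060. KU60019 35 d removal gave 5487 with only the compared groups. A single library left out took KU60019 15 d to 3639 from 5658 (S1_705), and KU60019 35 d to between 1932 and 2221 from 3381 (S14_715, S15_716 or S18_716). DMSO 35 d against 15 d ranged from 3 to 476 against 292. The difference between 35 and 15 d fell to 1409 without S5_715 and 1339 with log2(TPM + 0.1), against 2184.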

Other observations

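Groups that no tested comparison above sets against each other gave these medians of the 33 log2 differences between group means of CPM + 0.1, without a test. KU60019 35 d removal minus KU60019 35 d was -0.38, with 5 of the 33 genes positive, beside -0.01 for all genes tested. KU60019 35 d minus KU60019 15 d was -0.26, with 8 positive. KU60019 15 d removal minus KU60019 15 d was -0.16, with 13 positive, and DMSO 15 d removal minus DMSO 15 d was -0.39, with 6 positive.

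KU60019 35 d removal minus irradiation was -0.003, with 16 of the 33 genes positive. DMSO 35 d removal minus DMSO 15 d was 0.35, with 20 positive, beside -0.08 for all genes tested. KU60019 35 d removal minus DMSO 35 d was -0.23, with 11 positive, and KU60019 15 d removal minus DMSO 15 d was -0.05, with 16 positive.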
